A study of Mus musculus with 12 samples.

Results

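The genes described here are 10 members of the mammalian circadian clock and its direct outputs, Arntl, Nr1d1, Nr1d2, Dbp, Tef, Hlf, Per2, Per3, Cry1 and Ciart, chosen by name from the 55573 rows of the count table. All 10 passed the filter on low counts, among 14008 genes tested. They were followed through 12 RNA-seq libraries, each from the whole right hippocampus of 1 mouse aged 4.5 months on the C57BL/6J strain: 4 female and 4 male APPSwe/Ps1dE9 mice, called APP/PS1 here, and 2 female and 2 male wild-type (WT) mice. APP/PS1 mice carry a mutated chimeric mouse/human APP and human PS1 lacking exon 9, both driven by a prion promoter element, which is active in many brain cells rather than in 1 type. No group received a treatment, the animals lived under a light/dark cycle, and the time of day at which each brain was taken is not given in the sources used here. The question put to these genes was whether the APP/PS1 and WT libraries sat at different clock phases. They could do so if the 2 genotypes had been collected at different hours.

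The clock is a loop of transcription factors that turns over about once a day in nearly every cell, hippocampal cells included. Arntl (BMAL1) pairs with CLOCK and switches on genes that carry E-box motifs, among them the repressors Per2, Per3, Cry1 and Ciart, the nuclear receptors Nr1d1 and Nr1d2 (REV-ERB alpha and beta), and the PAR bZIP factors Dbp, Tef and Hlf. REV-ERB receptors in turn repress Arntl, so in rhythmic tissues Arntl RNA is lowest when Dbp and Nr1d1 RNA are high. A change in sampling hour could therefore move Dbp and Nr1d1 in one direction and Arntl in the other. Equal levels need not mean equal hours, since a daily rhythm passes the same level both rising and falling.

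Short stretches of the start regions show the motifs through which this loop is wired. RefSeq promoter windows (GRCm38.p6) of 300 bases, 250 before and 50 after a start, were at hand for 9 of the 10 members, in 11 windows; Per2 had none. The E-box CACGTG, searched on both strands, occurred in 7.15% of all 32851 windows, and in windows of Ciart, which held 3, of Cry1, and of both starts of Tef. The related E-prime box CACGTT occurred in 4.68% of windows and in those of Cry1 and Nr1d1; the D-box, spelled TTATGTAA or TTACGTAA, to which Dbp, Tef and Hlf bind, in 1.06% and, 2 times, in that of Per3. The core TAGGTCA of the site shared by REV-ERB and ROR receptors occurred in 2.61% of windows and in that of Arntl, 31 to 37 bases after the start, and the cyclic AMP response element TGACGTCA in 1.79% and in that of Hlf. The stretches below run 5′ to 3′ on the strand of the gene, with the motif in capitals (AACGTG is the E-prime box read from the other strand). They come from chr3:95882255-95882356 (minus) for Ciart, chr10:85185097-85185145 (minus) for Cry1, chr15:81802534-81802563 and chr15:81811264-81811293 (plus) for the 2 starts of Tef, chr11:98775388-98775417 (minus) for Nr1d1, chr4:151044804-151044882 (minus) for Per3 and chr7:113207531-113207557 (plus) for Arntl. A match describes these letters only and is no evidence of binding in these animals.
Ciart: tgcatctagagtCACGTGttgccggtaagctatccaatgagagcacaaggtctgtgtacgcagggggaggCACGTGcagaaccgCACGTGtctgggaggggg
Cry1: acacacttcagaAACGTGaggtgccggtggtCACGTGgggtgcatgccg
Tef, first start: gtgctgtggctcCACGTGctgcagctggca
Tef, second start: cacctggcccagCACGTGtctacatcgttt
Nr1d1: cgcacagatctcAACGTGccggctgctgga
Per3: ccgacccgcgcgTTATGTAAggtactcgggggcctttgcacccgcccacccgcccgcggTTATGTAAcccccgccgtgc
Arntl: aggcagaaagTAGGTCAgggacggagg

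Depth was ample for all members. Libraries held 36714316 to 50643565 counts, and the lowest count of any member was 121, for Ciart. Cst7, a gene of plaque-associated microglia, separated the genotypes as labelled, with 6.04 to 14.9 CPM (counts scaled to the size of the library) in APP/PS1 and 0.0263 to 0.106 in WT. Mouse App and Prnp overlapped between the genotypes, with App at 1540 to 1659 CPM in APP/PS1 and 1550 to 1716 in WT. Whether reads of the transgenes fell on these rows was not tested. Choroid plexus RNA was abundant in 3 libraries (WT female 2, APP/PS1 male 2 and APP/PS1 female 1), with transthyretin (Ttr) at 3530 to 6362 CPM against 2.69 to 18.3 in the other 9. The tissue is a mixture, in which fewer cells of a type and less RNA per cell cannot be told apart.

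Compared per length of exon, members fell into high and low levels. In RPKM, which divides counts by exon length and library size (mean ± SD over all 12 libraries), Tef stood highest at 44.4 ± 5.21, above the range of every other member. Hlf (24.3 ± 3.29), Nr1d1 (24.2 ± 3.47), Nr1d2 (20.3 ± 2.37) and Dbp (13.5 ± 3.28) followed, and the ranges of neighbours in this order overlapped. Per2 (5.19 ± 1.28), Arntl (4.43 ± 0.546), Cry1 (4.15 ± 0.508), Per3 (3.02 ± 0.690) and Ciart (2.40 ± 0.668) formed the low set, again with overlapping neighbours. The lowest RPKM of Dbp, 7.83, stayed above the highest of Per2, 7.30. The annotation places Sphk2 antisense to Dbp, Thra antisense to Nr1d1, and further genes across Tef, Ciart, Arntl and (Camta1, same strand) Per3. Since the strand setting of the counting is not given in the sources used here, reads of these partners cannot be told apart with certainty.

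Arntl, the activator of the loop, overlapped between the genotypes. Its normalized CPM were 34.9, 29.95, 39.95 and 34.6 in APP/PS1 females 1 to 4, 37.3, 32.6, 29.0 and 29.5 in APP/PS1 males 1 to 4, 31.3 and 38.1 in WT females 1 and 2, and 35.7 and 26.7 in WT males 1 and 2. Each genotype held both high and low animals, and the 2 WT males stood further apart than the extremes of the 4 APP/PS1 males.

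Nr1d1, the repressor of Arntl, was the member with the largest genotype difference relative to its error. It stood at 63.3, 72.7, 70.8 and 57.6 CPM in APP/PS1 females 1 to 4 and at 86.1 and 74.3 in WT females. In males it stood at 66.7, 66.8, 81.2 and 91.7 in APP/PS1 and at 71.3 and 89.3 in WT. Females of the 2 genotypes did not overlap for Nr1d1, by a margin of less than 2 CPM, and males overlapped; among all genes tested the genotypes did not overlap for 19.2% in females and 10.8% in males. No other member was apart in either sex. Its paralogue Nr1d2 ran from 88.2 to 124.9 CPM in APP/PS1 and from 89.1 to 124.4 in WT.

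The PAR bZIP factors bind D-boxes and carry the rhythm to metabolic genes. Dbp, known for a steep daily rhythm in many tissues, stood at 33.7, 47.2, 32.8 and 23.4 CPM in APP/PS1 females and 40.3, 46.2, 48.5 and 52.6 in APP/PS1 males. In WT it stood at 47.4 and 27.8 in females and 32.8 and 50.9 in males. The 4 WT animals split into 2 high and 2 low, 1 of each in each sex, and all 4 fell inside the APP/PS1 range. Tef ran from 291 to 400.3 CPM in APP/PS1 and from 298 to 413 in WT. Hlf stood at 153, 162, 140.4 and 146 in APP/PS1 females, 183, 139, 184 and 187 in APP/PS1 males, 161 and 127 in WT females and 177 and 194 in WT males, with 1 APP/PS1 male far below the other 3.

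The negative limb gave the same picture. Per2, a repressor of CLOCK and BMAL1, stood at 27.0, 38.9, 25.3 and 26.2 CPM in APP/PS1 females, 20.9, 23.3, 29.0 and 40.0 in APP/PS1 males, 37.8 and 23.8 in WT females, and 29.6 and 42.7 in WT males. Ciart (Chrono), another repressor of that pair and the least abundant member, stood at 5.29, 7.77, 3.57 and 3.37 in APP/PS1 females, 4.89, 5.75, 6.09 and 7.82 in APP/PS1 males, 5.74 and 3.66 in WT females, and 4.56 and 6.60 in WT males. Both genes were high in WT male 2, APP/PS1 male 4 and APP/PS1 female 2, and the genotypes overlapped. Per3 ran from 19.7 to 42.4 CPM in APP/PS1 and from 23.9 to 35.8 in WT, and Cry1, the partner of the PER proteins, from 11.6 to 16.9 and from 12.1 to 16.2. Taking both sexes, the genotypes overlapped for all 10 members, where they did not for 1.45% of genes tested.

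**Figure D1:**
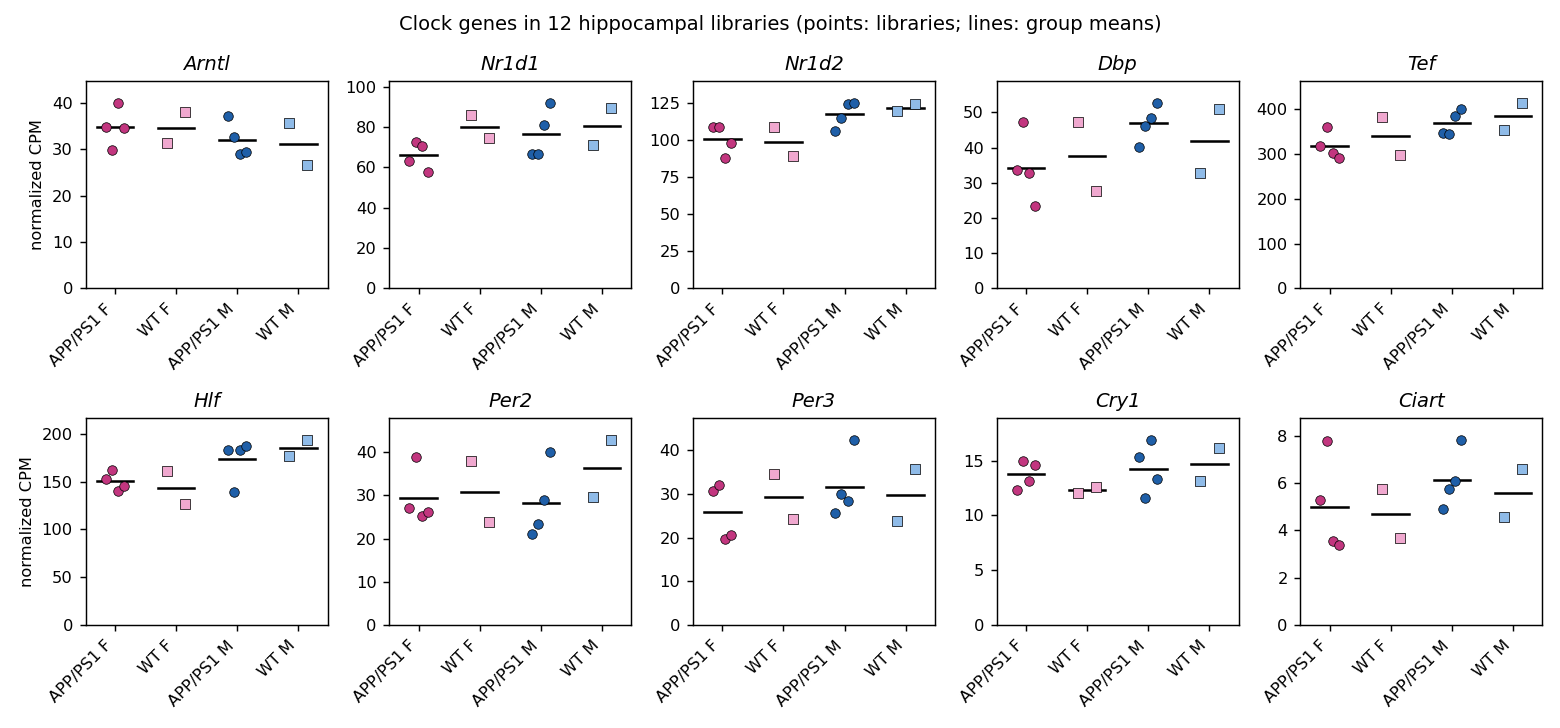
Normalized CPM (y axis, from 0) of each clock gene in APP/PS1 and WT females (F) and males (M); points are libraries, horizontal lines group means (n = 4, 2, 4 and 2). The 2 WT animals of a sex often sit far apart, as for Dbp in females at 47.4 and 27.8 CPM.

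No member was called between genotypes. With sexes averaged, edgeR's quasi-likelihood test called 0 of 10 at a false discovery rate (FDR) under 0.1, beside 1.84% of all genes, and 0 of 10 at an unadjusted p under 0.05, beside 9.46%; the likelihood ratio test and DESeq2 also called 0 at that FDR. The count at the unadjusted p was 0 to 2 over the alternatives; it reached 2 without WT female 1 (Dbp at 0.34 and Ciart at 0.42) and without WT female 2 (Nr1d1 at -0.15 and Tef at -0.12), and none of these passed the FDR. The median log2 difference of the members, APP/PS1 minus WT, was 0.014, beside 0.0091 over all genes, with 6 higher and 4 lower. Nr1d1 had the smallest p, at a log2 difference of -0.12 (SE 0.055, adjusted p = 0.542 by edgeR). Arntl differed by -0.0060 (SE 0.096), with a 95% interval of 0.86 to 1.15-fold. Dbp differed by 0.11 (SE 0.17), an interval of 0.83 to 1.41-fold, and Ciart by 0.21 (SE 0.17), 0.90 to 1.49-fold.

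The other members lay between these. Per2 differed by -0.12 (SE 0.13), Per3 by 0.026 (SE 0.14), Nr1d2 by 0.010 (SE 0.069), Tef by -0.038 (SE 0.058), Hlf by 0.018 (SE 0.055) and Cry1 by 0.061 (SE 0.092). Intervals were narrowest for Nr1d1, at 0.849 to 1.001-fold, Hlf, at 0.93 to 1.10-fold, and Tef, at 0.89 to 1.06-fold. They were widest for Ciart and Dbp, with the ends given above. These intervals hold for the averaged sexes in this fit, and the errors of Ciart in females and Dbp in males, given below, were larger. In an exact two-sided permutation test of each gene's log2 CPM, which exchanged genotypes within sex in every possible way, p ran from 0.151 for Nr1d1 to 0.884 for Dbp, before any correction for 10 genes.

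The sexes taken singly gave no call either. In females 0 of 10 were called, beside 0.75% of genes, and 1 of 10 had an unadjusted p under 0.05, beside 9.52%: Nr1d1, at a log2 difference of -0.22 (SE 0.080, adjusted p = 0.370 by edgeR). Without WT female 1 the difference of Nr1d1 in females was -0.16 and its unadjusted p no longer fell under that threshold (adjusted p = 0.982 by edgeR), while 2 other members did. No member fell under it in females without APP/PS1 female 1 or without factors of unwanted variation. Other settings went the other way. The smallest unadjusted p of any member in females was 0.0146 in the main fit and 0.0027 without APP/PS1 male 1 (adjusted p = 0.16), both by edgeR. Ciart had the largest difference upward, 0.22 (SE 0.24). In males 0 of 10 were called at either threshold, beside 0.157% and 5.14% of genes, and differences ran from -0.26 (SE 0.19) for Per2 to 0.26 (SE 0.24) for Dbp, with Nr1d1 at -0.010 (SE 0.078). For the difference of the genotype effect between sexes 0 of 10 members passed at either threshold, beside 0% and 3.57% of genes; Nr1d1 came nearest, at -0.21 (SE 0.11, adjusted p = 0.998 by edgeR).

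**Figure D2:**
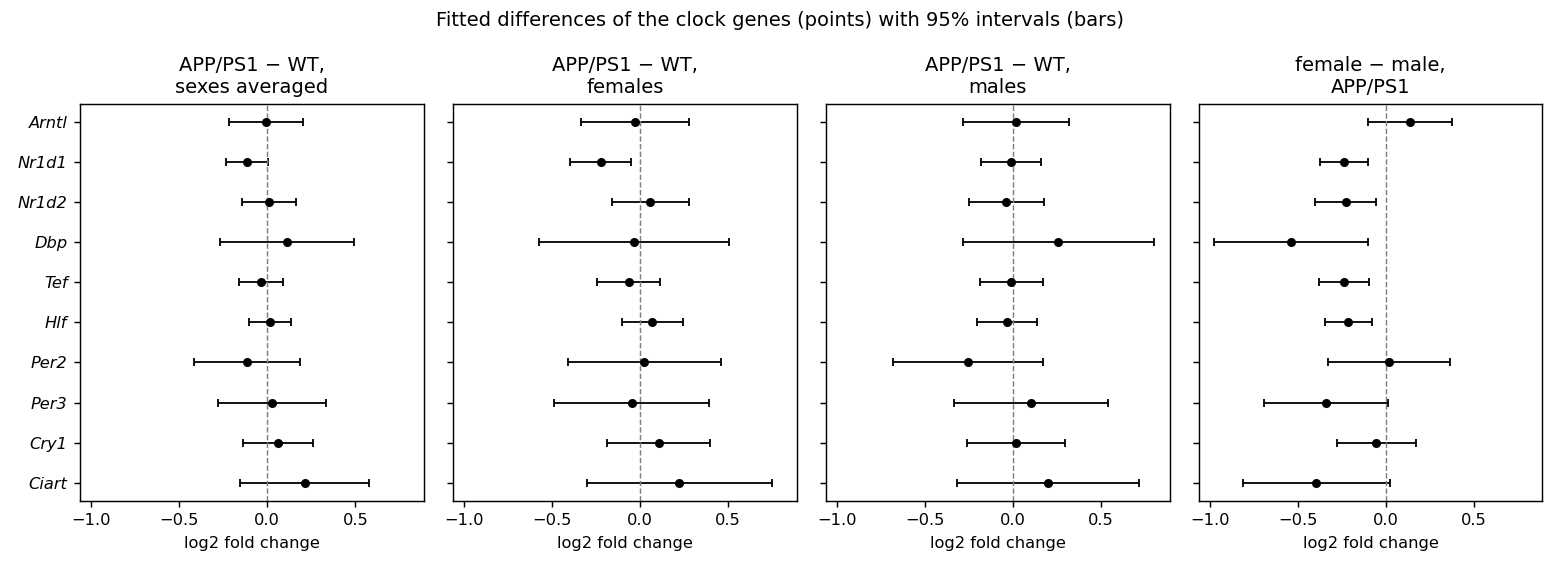
Fitted log2 fold changes (x axis) of each clock gene in 4 comparisons; points are estimates and bars 95% intervals. Genotype intervals span 0 for every gene with sexes averaged and in males, and exclude it for Nr1d1 in females. For females against males within APP/PS1, the intervals of 5 genes lie wholly below 0.

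Although no member was called between genotypes, the members moved together from animal to animal. After the mean of each of the 4 groups was removed, the SD of log2 CPM was 0.40 for Ciart, 0.37 for Per2, 0.36 for Dbp and 0.35 for Per3, larger than that of 93.3% to 95.4% of genes tested (median 0.13). Nr1d1, Arntl, Cry1, Hlf, Tef and Nr1d2 varied less, from 0.19 down to 0.13. Of the 36 pairs of members without Arntl, 35 correlated positively (median Pearson r = 0.73 over 12 libraries), and all 9 pairs with Arntl negatively (median r = -0.80). These values are descriptions: the points share libraries, scaling and group means.

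Among the outputs, Dbp ran with Tef (r = 0.93), Per3 with Ciart (r = 0.93) and Per2 with Tef (r = 0.93). Arntl was most opposed to Per2 (r = -0.87). Cry1 stood outside this pattern, with r between -0.040 and 0.28 to every member but Hlf (0.55) and Arntl (-0.37).

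**Figure D3:**
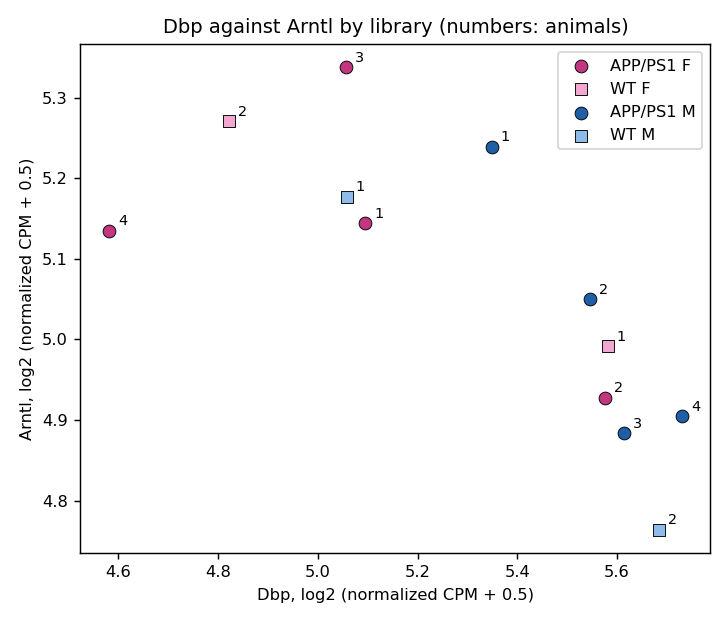
Dbp (x axis) against Arntl (y axis) as log2 (normalized CPM + 0.5); each point is a library, circles APP/PS1 and squares WT, numbered by animal. High Dbp goes with low Arntl in both genotypes, with WT male 2 and WT female 2 near opposite ends.

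A single number per library summarised the state of the loop: the mean log2 CPM of Nr1d1, Ciart, Dbp and Per3 minus that of Arntl, called the phase contrast here, which is high where the outputs are high and Arntl is low. Because it takes differences of abundances between genes, only its differences between libraries can be read. It was -0.50, 0.033, -0.94 and -0.94 in APP/PS1 females 1 to 4 and -0.60, -0.25, 0.00049 and 0.28 in APP/PS1 males 1 to 4. WT females stood at -0.045 and -0.84 and WT males at -0.63 and 0.28. WT male 2 and APP/PS1 male 4 were the highest of the 12, and the 3 lowest held 2 APP/PS1 females and 1 WT female.

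The mean was -0.36 ± 0.46 (SD, n = 8) in APP/PS1 and -0.31 ± 0.52 (SD, n = 4) in WT, a gap far smaller than the spread among animals of a genotype. With 4 WT animals this gap is loosely fixed. It changes sign when WT male 2 is left out and widens, with APP/PS1 lower, without the choroid-plexus-rich libraries. A difference in mean phase contrast between the genotypes is therefore neither shown nor excluded. Each of the 4 groups spanned 0.79 to 0.98 log2 units of a total range of 1.23, even the WT groups with 2 animals each. By sex, APP/PS1 females averaged -0.59 ± 0.46 (n = 4) and APP/PS1 males -0.14 ± 0.37 (n = 4), WT females -0.44 ± 0.56 (n = 2) and WT males -0.18 ± 0.65 (n = 2). No test was made on this score. The order of animals by it is not an order of hours, since the amplitude of each gene in this tissue was not measured here.

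**Figure D4:**
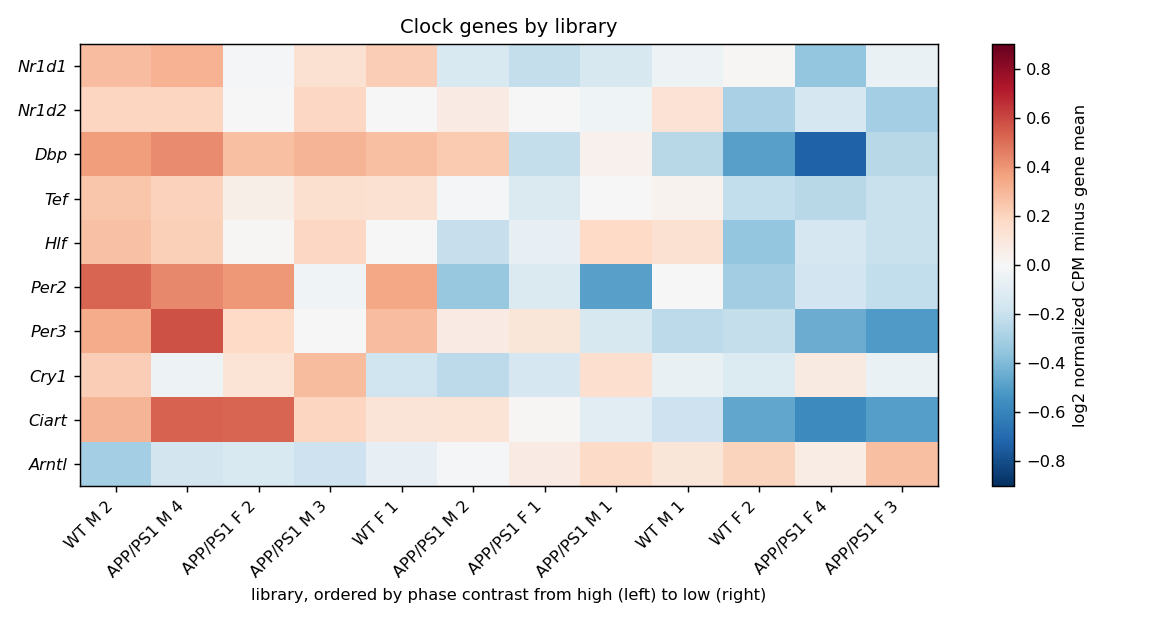
Log2 normalized CPM minus the mean of each gene (colour, red high and blue low) for the clock genes (rows) in 12 libraries, ordered by phase contrast from 0.28 on the left to -0.94 on the right. Most outputs turn from red to blue from left to right, Arntl turns the other way, and APP/PS1 and WT animals are interspersed. The order is built from Nr1d1, Ciart, Dbp, Per3 and Arntl, so the turn of these rows follows from the sorting.

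Members also leaned one way between the sexes. Within APP/PS1, 8 of 10 were lower in females than in males, with a median log2 difference, female minus male, of -0.23 beside 0.0057 over all genes. At an unadjusted p under 0.05, 5 of 10 were lower in females, beside 2.44% of all genes (5.32% in either direction), but 0 of 10 passed the FDR, which 0.0857% of genes did. Dbp differed by -0.54 (SE 0.19, adjusted p = 0.862), Nr1d1 by -0.24 (SE 0.063, adjusted p = 0.798) and Nr1d2 by -0.23 (SE 0.079, adjusted p = 0.857), all by edgeR. Tef (-0.24, SE 0.066) and Hlf (-0.21, SE 0.063), both at an adjusted p of 0.802, stood on the same side, and Arntl stood at 0.14 (SE 0.11) in the opposite direction. The 5 genes are correlated with each other, so they do not count as 5 separate observations.

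The sexes overlapped within APP/PS1 for all 10 members, where they did not for 1.63% of genes. For Dbp, APP/PS1 female 2 at 47.2 CPM stood above APP/PS1 males 1 and 2. The count at unadjusted p under 0.05 was 5 without the 3 choroid-plexus-rich libraries, but 2 without the correction for unwanted variation and 3 with 1 factor in place of 2. In WT 9 of 10 members were lower in females, with a median of -0.22, close to that in APP/PS1. Over all genes in WT the median was -0.0088 and 47.2% were higher in females. These WT values rest on 2 animals of each sex. In WT alone 2 members passed that threshold, Nr1d2 at -0.32 (SE 0.12) and Hlf at -0.32 (SE 0.095), neither passing the FDR, beside 4.47% of genes, and with both genotypes averaged 6 did, beside 5.88%; those counts were added after the APP/PS1 values were seen.

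Other RNAs that follow the hour, arousal or handling were set beside these shifts. Within APP/PS1, 14 of 14 glucocorticoid-responsive genes were higher in females (median log2 difference 0.41), 10 of 10 immediate early genes, which answer to neuronal activity, were lower (median -0.48), and 7 of 8 temperature-responsive genes were lower (median -0.21). Over all genes 52.8% were higher in females (median 0.0057). At an unadjusted p under 0.05 the counts were 5 of 14, 4 of 10 and 2 of 8, beside 5.32% of all genes, and none passed the FDR in edgeR's test. In WT the glucocorticoid-responsive genes split 8 higher and 6 lower in females (median 0.047). Lower there were 10 of 10 immediate early genes (median -0.31) and 5 of 8 temperature-responsive genes (median -0.073). Over all genes in WT 47.2% were higher in females (median -0.0088). Of the factors that the correction removed, the second correlated with the phase contrast across the 12 libraries at r = -0.53 and the first at -0.23; the level of choroid plexus genes correlated at -0.23. Their part in the sex difference was not tested.

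Other genes of the loop also showed no called genotype difference. Of 11 further core partners 4 were higher and 7 lower in APP/PS1 with sexes averaged (median log2 difference -0.039), none passed the FDR, and Bhlhe41 (DEC2, an E-box repressor) at 0.18 (SE 0.059, adjusted p = 0.265), Per1 at -0.21 (SE 0.11) and Nfil3 at -0.12 (SE 0.073) had the smallest p by edgeR. Of 11 genes that modify or degrade clock proteins 7 were higher and 4 lower, none passed, and Csnk1d, a kinase of PER proteins, came first at -0.11 (SE 0.039, adjusted p = 0.367 by edgeR), before Nono (0.079) and Gsk3b (0.063). Of 10 further clock-controlled outputs 6 were higher and 4 lower, with Tspan4 (0.17), Adcyap1r1 (-0.065) and Nampt (0.051) first and none passing.

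Several of these partners tracked Dbp from animal to animal. After group means were removed, Dbp correlated at r = 0.85 with Cry2, 0.84 with Bhlhe40, 0.71 with Per1 and 0.71 with Bhlhe41, and at r = -0.89 with Clock, the partner of Arntl. Clock itself ran from 122 to 139 CPM in APP/PS1 and from 115 to 132 in WT. Of the 14008 genes tested, 1.08% had r above 0.8 to Dbp and 1.19% below -0.8, so a high value alone does not mark a clock gene. The 5 genes most like Dbp were Soga1 (r = 0.95), Ptcd1, Zfp821, Gtf2i and Hspa2 (0.93), and the 5 most opposed were Slc25a53 (-0.97), Zfp758, Gldn, Gm10524 and Exosc3 (-0.92), all over 12 libraries.

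The glucocorticoid-responsive list leaned one way between genotypes. All 14 glucocorticoid-responsive genes were lower in APP/PS1 with sexes averaged (median log2 difference -0.34, beside 0.0091 over all genes, of which 54.5% were higher), 4 at an unadjusted p under 0.05, beside 9.46% of all genes, and 0 at the FDR. First came Ddit4 (-0.32, adjusted p = 0.140 by edgeR), Tsc22d3 (-0.48) and Sult1a1 (-0.70). Their summed level ran from 796 to 1277 CPM in APP/PS1 and from 1033 to 1197 in WT. Of 10 immediate early genes tested, 5 were higher and 5 lower, and Fosb fell (-0.47, SE 0.11, adjusted p = 0.0600 by edgeR), from 9.06 to 17.1 CPM in APP/PS1 against 15.5 to 22.8 in WT. Fosb also tracked Dbp across animals (r = 0.83). Of 8 temperature-responsive genes 3 were higher and 5 lower, none passing, with Hspb1 (-0.20), Hspa1b (-0.17) and Hspa1a (-0.15) first.

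Cell type markers show what else moved with genotype in these libraries. All 5 microglial markers were higher in APP/PS1 with sexes averaged, beside 54.5% of all genes. At the FDR 3 of them passed, beside 1.84% of all genes called in either direction. Among those 3 were P2ry12 (0.59) and Csf1r (0.58 on the log2 scale). The summed level of the 5 markers was 390 to 583 CPM in APP/PS1 and 262 to 312 in WT. Of 5 astrocyte markers Gfap rose (1.06), with a summed level of 1692 to 2401 CPM against 1496 to 1665. Spink8, 1 of 7 markers of principal neurons, fell by 0.29 on the log2 scale with sexes averaged. Its mean CPM was 20.2 in APP/PS1 males against 26.7 in WT males, and 20.14 against 19.45 in females. Kl, 1 of 12 choroid plexus markers, fell by 0.42 in females (adjusted p = 0.096 by edgeR), where 0.75% of genes were called. Each female group held a choroid-plexus-rich library, with Kl at up to 129.9 CPM in APP/PS1 and 151.1 in WT. None of the 5 interneuron markers (Gad1 -0.12, Slc32a1 -0.087, Gad2 -0.067), 5 oligodendrocyte markers (Mog 0.10, Mag 0.047), 5 endothelial markers (Kdr 0.35, Tek 0.20, Pecam1 -0.050) or 4 thalamic markers (Lef1 0.22, Rgs16 -0.12, Prkcd -0.065) passed. Principal neuron markers summed to 4670 to 5782 CPM and thalamic markers to 33.4 to 40.4 across the 12 libraries. The part of these shifts in the clock genes' levels was not tested, and no clock gene was called in the same fit.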

How the data were processed

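Total RNA from 12 hippocampi was made into directional poly-A libraries and sequenced as paired ends. Per the labels and the study's methods, the authors used Trimmomatic for trimming, STAR for alignment (GRCm38) and HTSeq for counts per gene; versions, annotation release and strand setting are not given in the sources used here. The deposited values are raw counts per Ensembl gene, of which 55480 of 55573 were named from GENCODE M21. Genes were kept where log2 CPM reached 1 in 3 or more libraries (14008). All 12 libraries entered 1 fit (edgeR 4.0.16, R 4.3.3) with upper-quartile scaling, 4 group terms and 2 factors of unwanted variation, estimated by a re-implementation of RUVg on all but the 5000 genes most changed in a first pass, after the study's design. The robust quasi-likelihood F test was used, with Benjamini-Hochberg adjustment over all genes and an FDR under 0.1; the study's likelihood ratio test and DESeq2 1.42.0 were alternatives. Levels are CPM scaled by upper quartile, without removal of the factors; log2 levels use a pseudocount of 0.5, and RPKM the summed exon length. The fitted differences do remove the factors and can differ from ratios of these levels. Scripts were tested on simulated data.

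The labels name separate animals and give no batch. Library pairs within a group differed by 15.5 to 73 times counting noise (chi-square per degree of freedom), more than sequencing 1 library again would give. This measure cannot tell a second library of the same animal from a library of another animal. Replicate numbers were not used to pair animals across groups in the main fit. Libraries that share a number correlated at r from -0.643 to 0.697 after group means were removed. Libraries with different numbers were not compared, so whether the numbers pair animals is not settled. The 10 members and all gene lists (core clock partners, clock protein turnover and regulation, clock-controlled outputs, glucocorticoid-responsive, immediate early and temperature-responsive genes, and markers of choroid plexus, hippocampal principal neurons, interneurons, astrocytes, oligodendrocytes, microglia, endothelium and thalamus) were chosen with earlier results of these data known. Named were all members and, of each other list, the genes passing the FDR in a comparison or else the 3 with the smallest p, plus the 5 genes most and least like Dbp, except for some genes that are not reported here; Cry2, Bhlhe40, Clock and Per1 were added as partners of the loop after their values were seen.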

Additional observations from a re-analysis of the deposited data

Results flagged for a closer look

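In 2 of the 22 sets examined (10 members and the phase contrast, in each group of 4 animals), 1 animal stood far from the other 3 by Dixon's test; chance flags about 1 in 20. Per2 in APP/PS1 female 2 was 38.9 CPM, where the other APP/PS1 females stood at 25.3 to 27.0. The same animal also had the highest Dbp, Tef, Hlf, Ciart and Per3 and the lowest Arntl of its group. Hlf in APP/PS1 male 2 was 139.3 CPM, where the other APP/PS1 males stood at 183 to 187. That library is among the 3 rich in choroid plexus RNA, and its Cry1 (11.6 CPM) and Tef (345 CPM) were also the lowest of its group. The cause was not tested in either case.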

How the results depend on the processing

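The count of members called at the FDR stayed at 0 of 10 in all 5 comparisons under every alternative run (likelihood ratio test, DESeq2, TMM scaling, other or no low-count filter, 0 or 1 factor of unwanted variation, the mean choroid plexus level instead of factors, an FDR under 0.05, leaving out each library in turn or the 3 choroid-plexus-rich libraries). Each sex fitted alone, run for the genotype comparisons in females and in males, also gave 0. In a fit with the replicate number as a block, 0 members were called too, though whether these numbers pair animals is not settled. In that fit Tef moved from -0.038 to 0.0066 and no other averaged difference changed sign.

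For females against males within APP/PS1, the count at an unadjusted p under 0.05 (5) was 2 without factors, 3 with 1 factor and 3 with the choroid plexus level, and 4 to 7 on leaving out a library. Some genotype differences changed sign, none past the FDR in either direction. With sexes averaged, without the choroid-plexus-rich libraries the log2 differences were Dbp -0.090, Per3 -0.16, Nr1d2 -0.079, Arntl 0.067 and Hlf -0.047, and Ciart in females was -0.022. Without factors they were Per3 -0.056, Nr1d2 -0.0099, Arntl 0.0242 and Hlf -0.017. With 1 factor they were Per3 -0.055, Nr1d2 -0.00766, Arntl 0.0238 and Hlf -0.0076, and with the choroid plexus level Per3 -0.054, Nr1d2 -0.00767, Arntl 0.0237 and Hlf -0.0074. Without a low-count filter Per3 was -0.030, Nr1d2 -0.019 and Hlf -0.0072, and under DESeq2 Nr1d2 was -0.0020. The cause was not tested.

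Leaving out 1 library, averaged differences ran from -0.095 to 0.34 for Dbp, -0.25 to 0.019 for Per2, -0.15 to 0.21 for Per3, -0.075 to 0.097 for Nr1d2, -0.086 to 0.11 for Arntl, -0.12 to 0.046 for Tef, -0.038 to 0.061 for Hlf, -0.023 to 0.14 for Cry1, 0.014 to 0.42 for Ciart and -0.19 to -0.066 for Nr1d1. The extremes came without WT female 1 or WT female 2, except for Arntl and Nr1d1, where they came without WT male 1 or WT male 2. Ciart in females ran from -0.073 to 0.71 without 1 of the WT females, Nr1d1 in males from -0.14 to 0.11 without 1 of the WT males, and, for females against males within APP/PS1, Per2 from -0.12 to 0.16 and Cry1 from -0.12 to 0.016. Each genotype difference within a sex rests on 2 WT animals.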
